A study of Mus musculus with 36 samples.

Results

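The Srsf and Hnrnp genes encode the serine/arginine-rich (SR) proteins and the heterogeneous nuclear ribonucleoproteins (hnRNPs), the main families of proteins that choose splice sites on pre-mRNA. They were taken by name, as genes whose mouse symbol is Srsf followed by a number or Hnrnp followed by a letter, without pseudogene symbols (2 were left out). The rule gave 31 genes, 11 Srsf and 20 Hnrnp, of 52505 in the expression table. The rule itself uses names only, but it was set with earlier results of these data known. With a mean of at least 1 FPKM (fragments per kilobase of gene, scaled to depth by the authors) over the 12 libraries, 30 of the 31 were tested among 12961 genes: 10 Srsf and 20 Hnrnp. Srsf12 was at 0.0689 FPKM or less in each library and was not tested.

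The cells were 3T3-L1, a mouse fibroblast line that forms fat cells when given an adipogenic cocktail. RNA-seq libraries came from cells labelled zfp217-/- (KO) at day 0, wild type (WT) cells at day 0, KO cells at day 2 and WT cells at day 2 of the cocktail, with 3 libraries in each group. All groups grew in DMEM with FBS, and the cocktail, called MDI in the labels, lists dexamethasone (DEX), isobutyl-methylxanthine, insulin and indometacin. A further 24 samples, 12 from m6A immunoprecipitation and 12 inputs, were not analysed here. The labels do not say how the KO cells were made, whether they are a single clone, or whether replicate libraries stem from separate cultures. The p-values therefore measure the spread between these libraries, which may be technical, and genotype cannot be told apart from culture history.

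Reads recovered from the FPKM steps came to 18073258 to 23114994 per library. Zfp217 itself averaged 26.0 ± 0.883 FPKM in KO and 22.0 ± 0.279 in WT libraries at day 0, and 22.6 ± 0.858 in KO and 15.1 ± 0.369 in WT at day 2, so its message was not lower under the KO label. Every direction below is between libraries labelled KO and libraries labelled WT. WT day 0 replicate 3 stood apart in mt-Rnr1, a mitochondrial ribosomal RNA, with 264 FPKM where replicates 1 and 2 of its group had 7.01 and 5.87 and the KO day 0 libraries had 379 to 396. Results that change without this library are named. Fibroblast markers were high (7 of 7 above a mean of 1 FPKM), and endothelial and epithelial markers were under 1 FPKM in each library (4 of 4 each, with Epcam listed at 0). Of the macrophage and blood markers, Ptprc, Adgre1 and Csf1r were under 1 FPKM in each library. Aif1 averaged 5.51 ± 1.53 FPKM in KO and 1.64 ± 0.425 in WT at day 0 and 3.06 ± 0.502 in KO and 0.11 ± 0.0802 in WT at day 2, and Cd14 10.6 ± 0.803 in KO and 8.94 ± 0.512 in WT at day 0 and 4.6 ± 0.35 in KO and 1.19 ± 0.0667 in WT at day 2, both called higher in KO at each day. The summed level of the list was 14.4 to 17.7 FPKM in KO and 9.89 to 11.6 in WT at day 0, and 7.05 to 8.57 in KO and 1.23 to 1.51 in WT at day 2, and its part in the results was not tested.

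SR proteins carry RNA recognition motifs and a domain of arginine-serine repeats. They bind exonic enhancers, recruit the U1 snRNP and U2AF to nearby splice sites, and several also carry spliced mRNA out of the nucleus. The hnRNPs coat nascent transcripts, often silence splice sites by competing with SR proteins, and take part in mRNA transport, stability and translation. Members of both families hold back their own abundance through exons that send the transcript to nonsense-mediated decay. A gene-level FPKM counts such transcripts together with the coding ones, so values here are of gene output and not of isoforms. Hnrnpa2b1, Hnrnpc and Srsf3 are linked to N6-methyladenosine (m6A), the base modification measured in the other samples of the series. In human cells hnRNPA2B1 was described as a nuclear reader of m6A, hnRNPC as a protein that reaches U-tracts opened by m6A, and SRSF3 as a partner recruited by the m6A reader YTHDC1.

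The summed Hnrnp level was lower in KO cells than in WT cells at both days, while the Srsf sum was lower in KO at day 0 only. The 20 Hnrnp genes together came to 2617, 2633 and 2648 FPKM in the KO libraries at day 0, against 5214, 5157 and 5143 in the WT libraries. At day 2 they came to 3091, 3093 and 3081 FPKM in KO, against 4358, 4380 and 4411 in WT. The KO and WT ranges of this sum were apart at each day, and the KO sum at day 2 was still below the WT sum of either day. The 11 Srsf genes together came to 948, 949 and 954 FPKM in KO libraries at day 0 and to 1284, 1304 and 1283 in WT libraries. At day 2 the Srsf sum was 1176, 1173 and 1178 FPKM in KO and 1133, 1133 and 1143 in WT, with KO slightly above WT. These are sums of FPKM, dominated by the abundant members, and no test was made on them. As a share of all FPKM, the 31 genes held 0.551% in KO and 0.923% in WT at day 0, and 0.638% in KO and 0.801% in WT at day 2. In bulk RNA, fewer cells with a message and less of it per cell cannot be told apart.

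**Figure D1:**
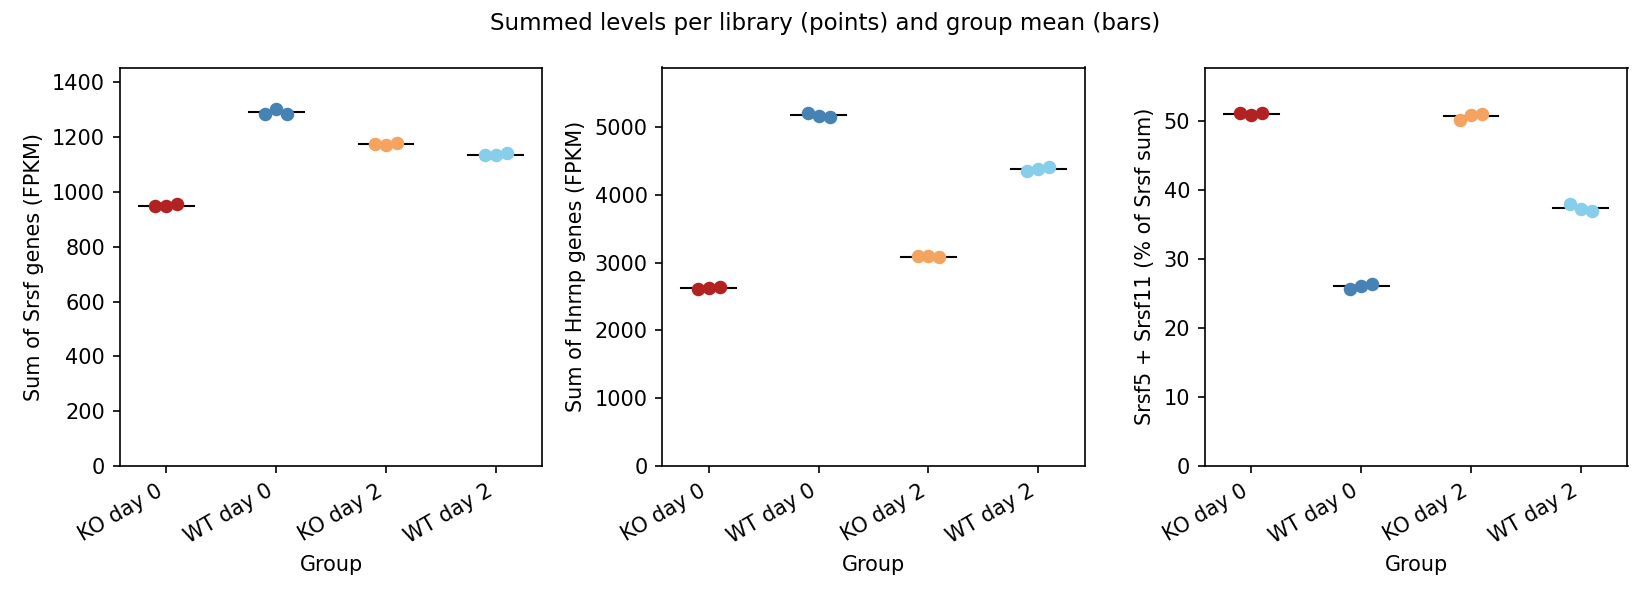
Summed FPKM of the Srsf genes and of the Hnrnp genes in each of the 12 libraries (points), by group, and the share of Srsf5 and Srsf11 in the Srsf sum (right), with bars at group means and linear axes that start at 0. The Hnrnp sum was 2617 to 2648 in KO and 5143 to 5214 in WT at day 0, and the Srsf sum at day 2 was 1173 to 1178 in KO and 1133 to 1143 in WT.

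By FPKM, which is scaled to gene length, Hnrnpa2b1 was the most abundant member in all 4 groups. The next place went to Hnrnph1, a protein that binds runs of G, in both KO groups (316 FPKM at day 0, 369 at day 2), and to Hnrnpk, which binds C-rich RNA through KH domains, in both WT groups (621 and 500.1 FPKM). Among the Srsf genes Srsf5 stood first in KO at day 0, KO at day 2 and WT at day 2, while Srsf3 stood first in WT at day 0, at 223 FPKM against 208 for Srsf5. Srsf4 was the lowest tested member in each group, at 8.53 FPKM in KO and 11.6 in WT at day 0, and 9.16 in KO and 9.89 in WT at day 2. Several neighbours in these orders were not apart in their libraries. Hnrnpu and Hnrnpk overlapped in KO at day 0, and Srsf9, Srsf10, Srsf3 and Srsf6 lay between 74.4 and 75.7 FPKM there. The make-up of the Srsf pool differed between the genotypes: Srsf5 and Srsf11 together were 51.1% of the Srsf sum in KO and 26.1% in WT at day 0, and 50.7% in KO and 37.4% in WT at day 2. Hnrnpa2b1 kept a narrower share of the Hnrnp sum, 17.6% in KO and 16.2% in WT at day 0, and 17.1% in KO and 19.5% in WT at day 2.

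**Figure D2:**
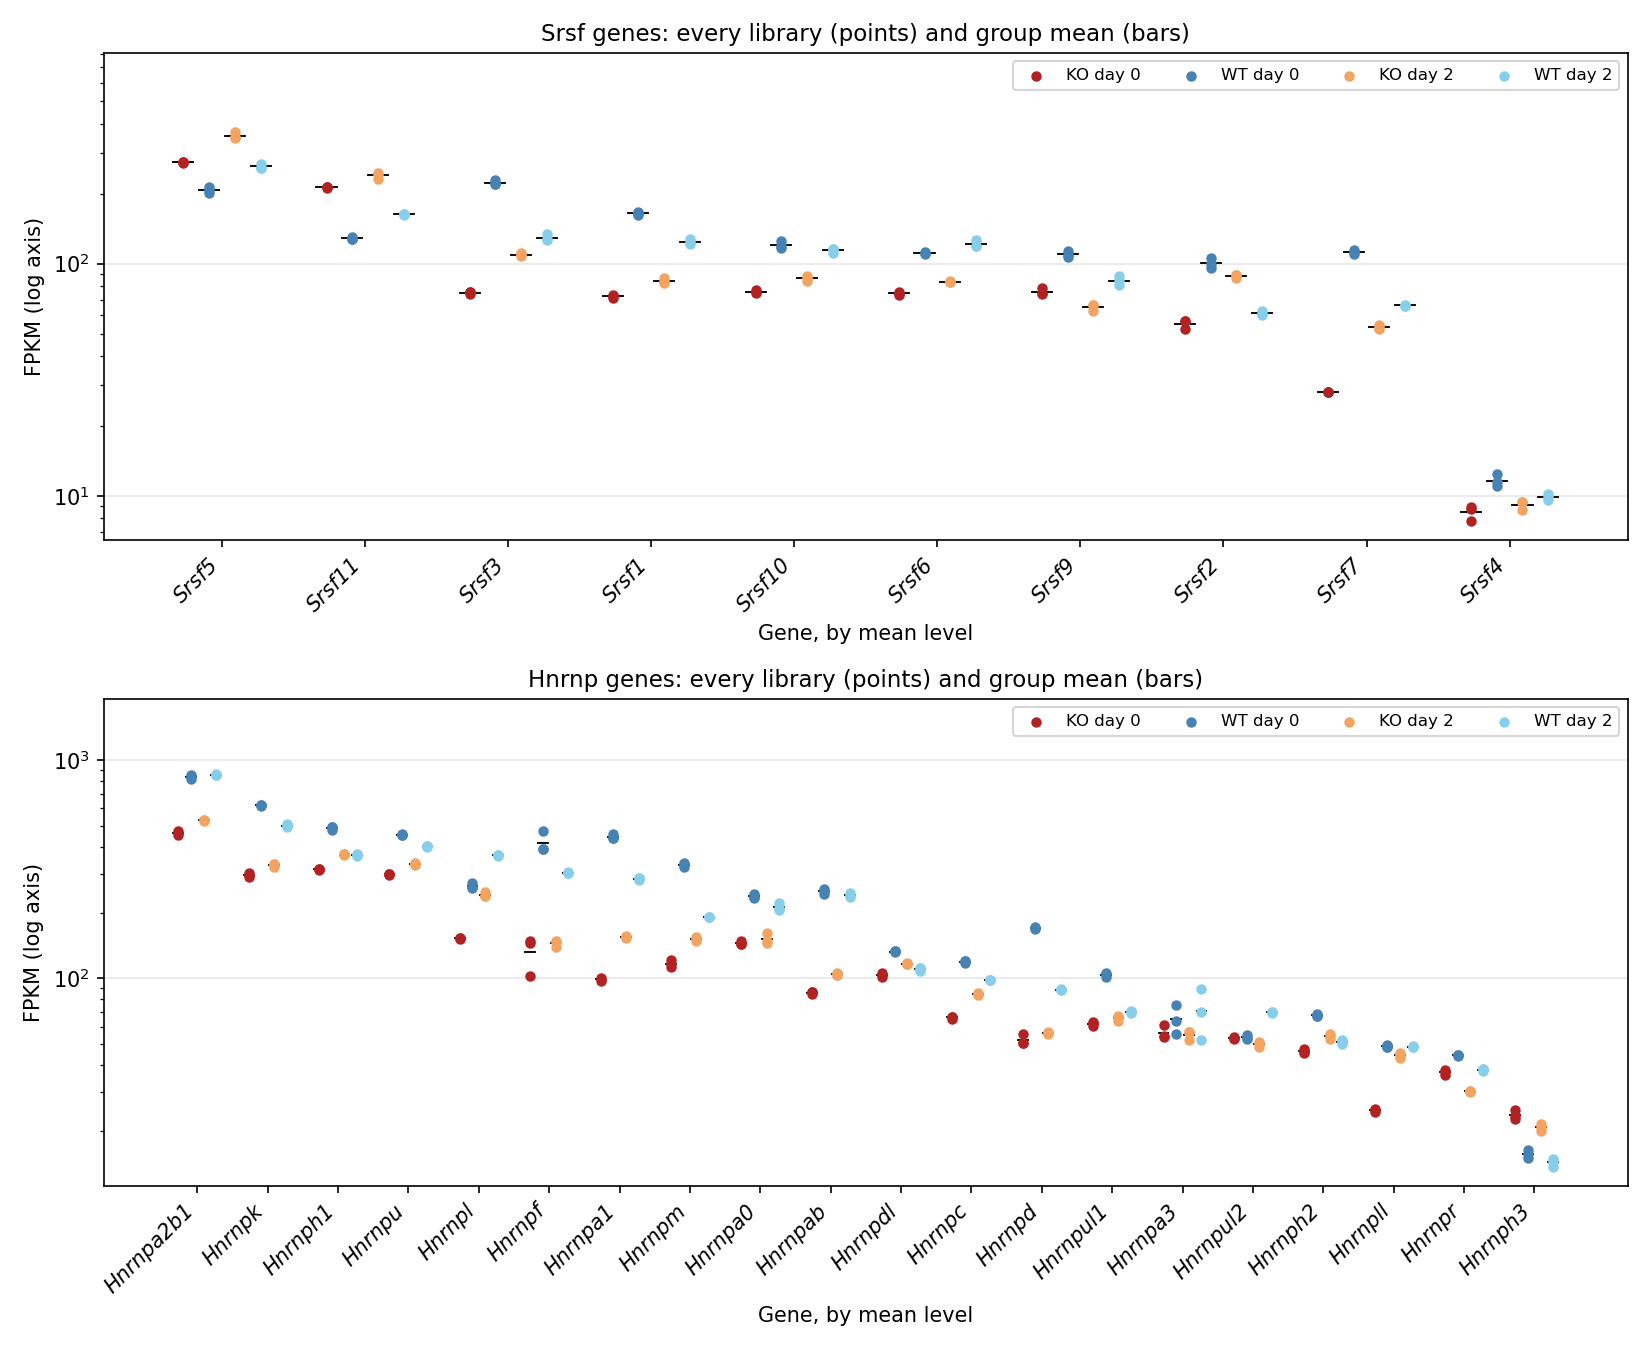
FPKM of each of the 30 tested members in each of the 12 libraries (points) on a log axis, Srsf genes above and Hnrnp genes below, with groups marked by colour and bars at group means. Hnrnpa2b1 is the highest member in every group and Srsf4 the lowest.

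KO was first set against WT at day 0, which addresses how cells labelled knockout differ before the cocktail. Of the 30 tested members 25 were lower in KO and 3 were higher, at an adjusted p under 0.05 (limma, Benjamini-Hochberg over all 12961 genes). Across all genes tested 44.2% were called lower and 38.3% higher, so lower calls were far more common among the members and higher calls less common than in the whole table. The median log2 change was -0.72 over the members and -0.06 over all genes. Requiring also a change of at least 1.5-fold, 19 members were lower and 1 was higher, beside 23.5% and 20.5% of all genes. The KO and WT libraries did not overlap in any of the 25 lower and 3 higher members, as in 98.4% of all genes called lower and 98.3% of those called higher. Lower in KO were 8 of 10 Srsf and 17 of 20 Hnrnp genes. Without WT day 0 replicate 3 the counts were again 25 lower and 3 higher.

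The largest falls included Hnrnpa1, the shuttling hnRNP that binds splicing silencers and opposes Srsf1. Hnrnpa1 was at 101, 99.0 and 97.0 FPKM in KO, against 437, 457 and 441 in WT. All 3 KO libraries lay far below all 3 WT libraries, with means 4.5-fold apart (log2 change -2.16, SE 0.023, adjusted p = 6.17e-15). Srsf7, an SR protein of splicing and mRNA export, was at 28.1, 28.1 and 28.0 FPKM in KO, against 110.1, 114 and 112 in WT. The KO libraries were nearly identical and lay below WT by 4-fold (log2 change -1.96, SE 0.022, adjusted p = 9.14e-15). Hnrnpd, also called AUF1, binds AU-rich elements of unstable mRNAs. It was at 50.8, 55.4 and 50.5 FPKM in KO, against 168, 170.3 and 172 in WT, lower by 3.26-fold with no overlap (log2 change -1.69, SE 0.031, adjusted p = 3.46e-13). Hnrnpf, which binds G-runs, was at 103, 145 and 148 FPKM in KO, against 470.5, 392 and 392 in WT. Its libraries scattered more than those of other members, with KO replicate 1 low and WT replicate 1 high, yet the groups stayed apart (log2 change -1.67, SE 0.116, adjusted p = 5.03e-08). Another RefSeq gene overlaps 11 of the 31 members, among them Hnrnpd, Hnrnpf, Hnrnpab, Hnrnph3, Hnrnpk, Hnrnpll, Srsf2 and Srsf9, and the strand setting of the counting is not given, so their values may include reads of a neighbour.

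The 3 m6A-linked genes all fell. Srsf3 was at 75.5, 75.3 and 74.0 FPKM in KO, against 221, 228 and 221 in WT, a 2.98-fold lower mean (log2 change -1.56, SE 0.026, adjusted p = 1.26e-13). Hnrnpa2b1 was at 474, 452 and 464 FPKM in KO, against 819, 852 and 844 in WT, lower by 1.81-fold (log2 change -0.85, SE 0.022, adjusted p = 6.24e-12). Hnrnpc was at 66.6, 66.7 and 65.2 FPKM in KO, against 120.1, 118 and 119.9 in WT, lower by 1.8-fold (log2 change -0.84, SE 0.019, adjusted p = 1.62e-12). In each of the 3 genes the groups were separate, and the spread within a group was a small part of the difference. In the RefSeq annotation of GRCm38.p6, the patch release of the mm10 build, Srsf3 (ENSMUSG00000071172) lies at chr17:29032660-29043372, Hnrnpa2b1 (ENSMUSG00000004980) at chr6:51460434-51470048 and Hnrnpc (ENSMUSG00000060373) at chr14:52073377-52104039.

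Only 3 members rose in KO at day 0. Srsf11, an SR protein of the nuclear speckles, was at 214, 212 and 214 FPKM in KO, against 128, 127 and 131 in WT, 1.66-fold higher (log2 change 0.73, SE 0.023, adjusted p = 2.89e-11). Hnrnph3, the short relative of Hnrnph1, was at 23.5, 25.1 and 22.7 FPKM in KO, against 15.7, 16.4 and 15.1 in WT (log2 change 0.56, SE 0.047, adjusted p = 2.84e-07). Srsf5, a further SR protein, was at 272, 272 and 274 FPKM in KO, against 202, 214 and 208 in WT (log2 change 0.39, SE 0.029, adjusted p = 9.22e-08). In these genes all KO libraries stood above all WT libraries. The 2 members that did not pass were Hnrnpul2, at 53.2 ± 0.691 FPKM in KO and 53.7 ± 1.18 in WT, and Hnrnpa3, at 56.4 ± 3.95 in KO and 65.0 ± 10.1 in WT. Hnrnpul2 was called higher in KO with 2 of the other scalings, at a log2 change of 0.092 with TPM scaling (adjusted p = 0.00499) and 0.11 with quantile normalization (adjusted p = 0.00205), so its lack of a call is not a sign of equal levels.

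Between these extremes the other members lower in KO ran from Hnrnpr (log2 change -0.26) to Hnrnpab (-1.54). Hnrnpm, which binds GU-rich RNA, averaged 117 ± 4.83 FPKM in KO and 331 ± 6.69 in WT. Hnrnpk averaged 298 ± 6.66 FPKM in KO and 621 ± 3.39 in WT. Srsf1, the founding SR protein, averaged 72.2 ± 1.11 FPKM in KO and 165 ± 2.43 in WT. Srsf10, which represses splicing after heat shock and has been linked to fat cell formation in mice, averaged 75.5 ± 0.949 FPKM in KO and 120.3 ± 4.68 in WT. The change was thus broad within both families and uneven between members, with log2 changes from -2.16 to 0.73.

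**Figure D3:**
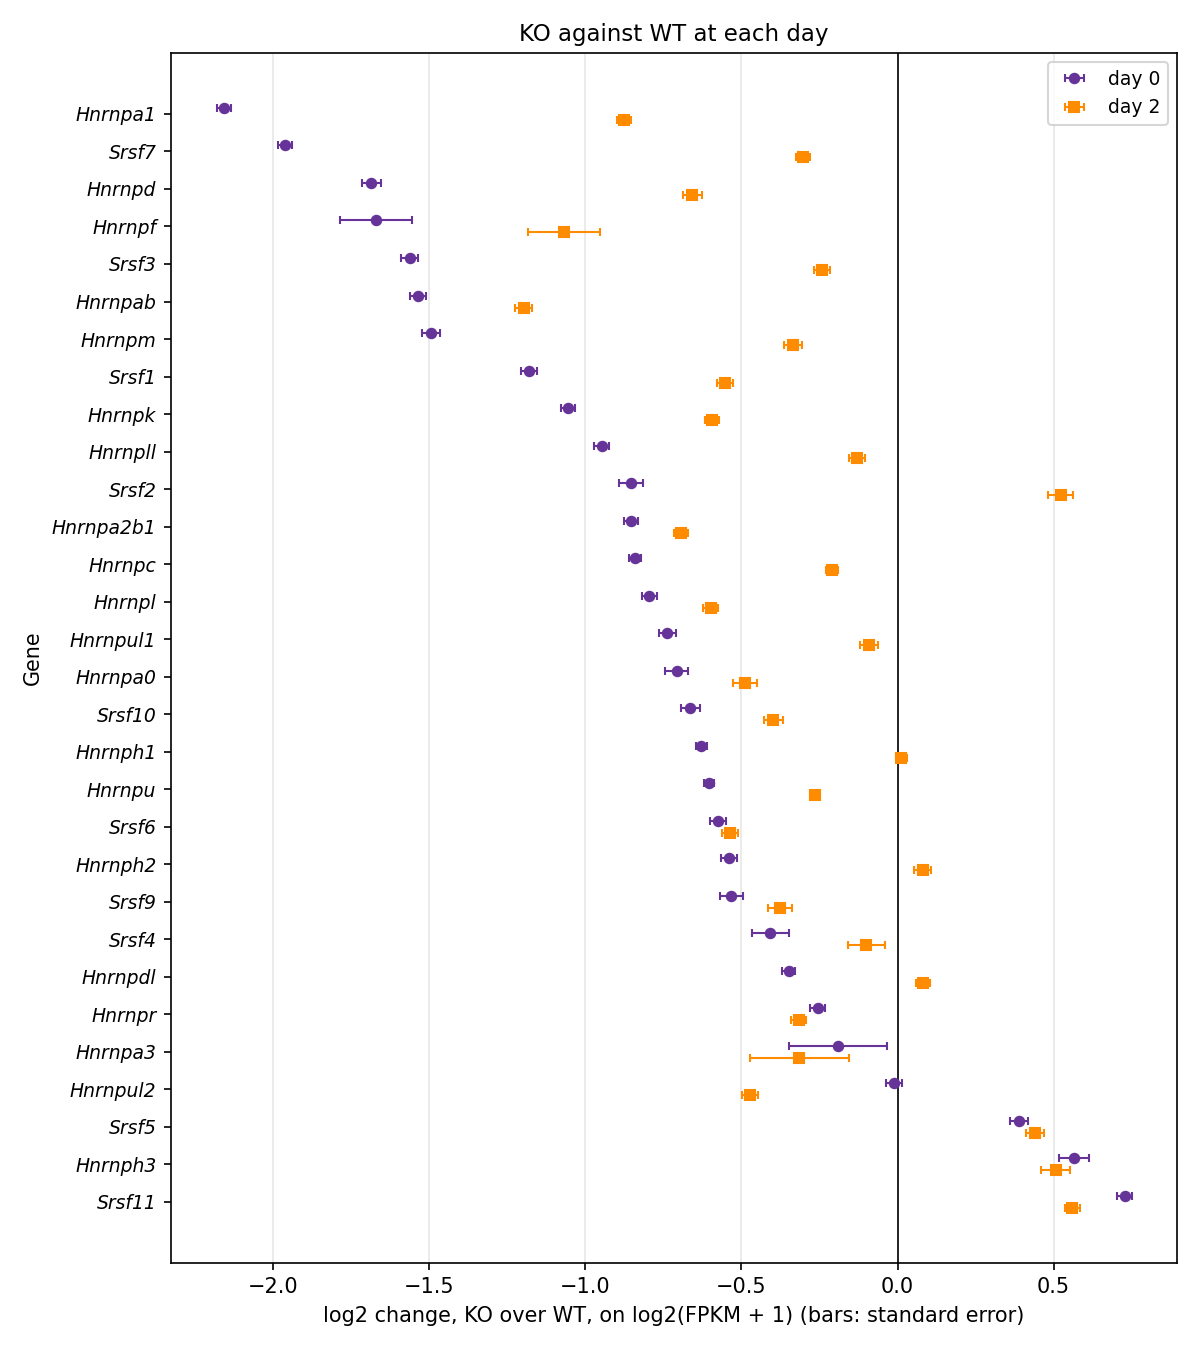
Log2 change of KO over WT on log2(FPKM + 1) for each tested member at day 0 (circles) and day 2 (squares), with bars of 1 standard error, ordered by the day 0 value. Most circles lie left of 0, most squares lie nearer 0 than the circles, and Srsf2 crosses to the right at day 2.

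KO was then set against WT after 2 days of cocktail. Here 21 members were lower in KO and 6 were higher, beside 40.6% lower and 40.8% higher among all genes. The median log2 change was -0.32 over the members and 0.00 over all genes. With the added 1.5-fold minimum, 7 members were lower and 0 were higher, beside 22.1% and 22.7% of all genes. The largest rise, that of Srsf11, had a log2 change of 0.56 and so stayed short of 1.5-fold. The count of lower members past 1.5-fold was therefore close to the background, unlike at day 0. Among the 10 Srsf genes 6 were lower, 3 were higher and 1 did not pass, and among the 20 Hnrnp genes 15 were lower, 3 were higher and 2 did not pass. KO and WT libraries did not overlap in any of the 21 lower and 6 higher members, nor in 98% of all genes called lower and 97.6% of those called higher.

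Hnrnpab, an hnRNP of the A/B type, had the largest fall at day 2. It was at 106, 104 and 104 FPKM in KO, against 239, 235 and 247 in WT, 2.31-fold lower (log2 change -1.20, SE 0.026, adjusted p = 8.72e-13). Hnrnpf was at 146, 148 and 139.5 FPKM in KO, against 307, 302 and 305 in WT (log2 change -1.07, SE 0.116, adjusted p = 3.29e-06). Hnrnpa1 was at 157, 155 and 153 FPKM in KO, against 287, 288 and 281 in WT (log2 change -0.88, SE 0.023, adjusted p = 4.93e-12). In these genes the KO libraries remained well below the WT libraries. Hnrnpa2b1 was at 524, 532 and 531 FPKM in KO, against 855, 856 and 858 in WT, 1.62-fold lower (log2 change -0.69, SE 0.022, adjusted p = 3.26e-11). Hnrnpc was at 85.0, 83.9 and 85.5 FPKM in KO, against 98.6, 97.9 and 98.2 in WT, a smaller gap (log2 change -0.21, SE 0.019, adjusted p = 5.13e-07). Srsf3 was at 111, 109.8 and 107 FPKM in KO, against 128, 126 and 134 in WT, also a smaller gap (log2 change -0.24, SE 0.026, adjusted p = 2.54e-06). Of the m6A-linked genes Hnrnpa2b1 thus had the widest KO to WT difference at day 2, and all 3 were lower in KO in each library.

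Srsf2, an SR protein that binds exonic enhancers and stays in the nucleus, changed side. At day 0 it was at 52.2, 56.8 and 56.4 FPKM in KO, against 105, 96.0 and 100.0 in WT, lower in KO (log2 change -0.85, SE 0.039, adjusted p = 9.07e-10). By day 2 its values were 89.2, 86.6 and 88.9 FPKM in KO, against 60.9, 62.6 and 59.9 in WT, 1.44-fold higher in KO (log2 change 0.52, SE 0.039, adjusted p = 8.93e-08). Groups were separate at each day, in opposite order. Srsf2 is overlapped by Mfsd11. Srsf11 (244, 246 and 232 FPKM in KO, against 162, 163 and 163 in WT) again stood higher in KO (log2 change 0.56, SE 0.023, adjusted p = 2.69e-10). Hnrnph3 (20.9, 19.9 and 21.5 FPKM in KO, against 14.5, 14.8 and 13.7 in WT) did so too (log2 change 0.51, SE 0.047, adjusted p = 7.82e-07). So did Srsf5 (346, 352 and 369.7 FPKM in KO, against 268, 259 and 259 in WT; log2 change 0.44, SE 0.029, adjusted p = 2.72e-08). The remaining 2 higher members, Hnrnpdl and Hnrnph2, differed by log2 changes of only 0.082 and 0.08, and Hnrnph2 lost its call when KO day 2 replicate 2 or WT day 2 replicate 2 was left out.

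The day 0 and day 2 comparisons share no library. By the calls at each day, 20 of 30 members were lower in KO at both days, and 3 (Srsf5, Srsf11 and Hnrnph3) were higher at both. Of all genes tested 27.9% were lower at both days and 25.5% higher at both. Hnrnpdl, Hnrnph2 and Srsf2 were lower at day 0 and higher at day 2, as were 9.81% of all genes. Hnrnph1 and Srsf4 were lower at day 0 and did not pass at day 2, at 369 ± 1.72 FPKM in KO and 366 ± 3.65 in WT for Hnrnph1. Both were called at day 2 with quantile normalization, and Hnrnph1 also with TPM scaling. The KO and WT libraries of Srsf4 did not overlap at day 2, so a lack of a call is not a sign of equal levels. Hnrnpul2, a protein of the scaffold attachment factor type, was called at day 2 only, at 48.4, 50.7 and 50.9 FPKM in KO, against 69.9, 69.9 and 69.4 in WT, with no overlap (log2 change -0.47, SE 0.025, adjusted p = 4.2e-09). Hnrnpa3 passed at neither day. For Hnrnpa3 the WT libraries scattered, at 70.2, 52.4 and 89.2 FPKM at day 2, and without WT day 2 replicate 2 it was called lower in KO (log2 change -0.51, adjusted p = 0.00297).

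The response to the cocktail was taken as day 2 against day 0 within each genotype. In KO cells 22 members rose and 4 fell, beside 33.9% higher and 38.8% lower among all genes, with a median log2 change of 0.18 over the members and -0.03 over all genes. In WT cells 5 members rose and 22 fell, beside 34.2% and 46.5% of all genes, with a median of -0.24 over the members and -0.11 over all genes. With median-of-ratios scaling the WT split was 7 higher and 17 lower. With the 1.5-fold minimum, 5 rose and 0 fell in KO (11.7% and 14.9% of all genes), and 0 rose and 6 fell in WT (17.6% and 25.8% of all genes). The largest fall in KO had a log2 change of -0.28 (Hnrnpr) and the largest rise in WT a log2 change of 0.46 (Hnrnpl). Libraries of the compared days did not overlap in 21 of the 22 members that rose in KO, in all 4 that fell there, and, in WT, in all 5 that rose and 21 of the 22 that fell. Among all called genes the shares without overlap were 96.9% (higher) and 97.7% (lower) in KO and 98.2% and 98.5% in WT, so separate libraries are the rule for any called gene here.

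In KO cells Srsf7 rose most, to 52.1, 54.4 and 53.6 FPKM at day 2, against 28.1, 28.1 and 28.0 at day 0 (1.9-fold; log2 change 0.91, SE 0.022, adjusted p = 6.06e-12). Hnrnpll, the hnRNP that directs skipping of CD45 exons in T cells, rose to 44.5, 45.5 and 42.9 FPKM at day 2, against 25.3, 24.8 and 24.5 at day 0 (log2 change 0.81, SE 0.025, adjusted p = 5.29e-11). In both genes each day 2 library was above each day 0 library. Srsf2 rose to a mean of 88.2 ± 1.42 FPKM at day 2, against 55.1 ± 2.55 at day 0 (log2 change 0.67, SE 0.039, adjusted p = 1.54e-08). Hnrnpl, which binds CA repeats, rose to 239, 237 and 249 FPKM at day 2, against 151, 153 and 152 at day 0 (log2 change 0.66, SE 0.024, adjusted p = 1.73e-10). The m6A-linked genes rose in KO as well: Srsf3 by 1.46-fold (log2 change 0.54, SE 0.026, adjusted p = 2.62e-09), Hnrnpc by 1.28-fold (log2 change 0.35, SE 0.019, adjusted p = 6.75e-09) and Hnrnpa2b1 by 1.14-fold (log2 change 0.19, SE 0.022, adjusted p = 9.41e-06).

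The 4 falls in KO were small. Hnrnpr, a paralogue of Syncrip, fell to 30.2, 30.6 and 30.5 FPKM at day 2, against 37.0, 36.1 and 38.1 at day 0 (log2 change -0.28, SE 0.024, adjusted p = 7.71e-07). Srsf9, a close relative of Srsf1, fell to 66.2, 62.5 and 66.0 FPKM at day 2, against 73.7, 78.3 and 75.0 at day 0 (log2 change -0.22, SE 0.038, adjusted p = 0.000245). The days were separate in both genes. Hnrnph3 fell to a mean of 20.8 ± 0.808 FPKM at day 2, against 23.8 ± 1.19 at day 0 (log2 change -0.18, SE 0.047, adjusted p = 0.00404), and Hnrnpul2 to 50.0 ± 1.39, against 53.2 ± 0.691 (log2 change -0.089, SE 0.025, adjusted p = 0.00769). The Hnrnpul2 call was lost with median-of-ratios scaling, at a log2 change of -0.031. Hnrnpa0, Hnrnpa3, Hnrnpf and Srsf4 did not pass in KO. Hnrnpd was called higher in KO with overlapping libraries, at 56.0, 55.3 and 56.5 FPKM at day 2, against 50.8, 55.4 and 50.5 at day 0, and lost its call without KO day 0 replicate 1 or 3.

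In WT cells the largest fall was that of Hnrnpd, to 88.4, 88.6 and 89.5 FPKM at day 2, against 168, 170.3 and 172 at day 0 (1.91-fold lower; log2 change -0.93, SE 0.031, adjusted p = 4.65e-11). Hnrnpm fell to 190.0, 191 and 192 FPKM at day 2, against 324, 333 and 336 at day 0 (log2 change -0.79, SE 0.028, adjusted p = 9.01e-11). Both genes had all day 2 libraries below all day 0 libraries. Srsf3 fell to 128, 126 and 134 FPKM at day 2, against 221, 228 and 221 at day 0 (log2 change -0.78, SE 0.026, adjusted p = 3.76e-11). Srsf7 fell to 65.9, 65.6 and 66.5 FPKM at day 2, against 110.1, 114 and 112 at day 0 (log2 change -0.75, SE 0.022, adjusted p = 1.39e-11). Srsf3 and Srsf7, which are paralogues, thus both fell in WT and both rose in KO. Of the other m6A-linked genes, Hnrnpc fell in WT to a mean of 98.2 ± 0.367 FPKM at day 2, against 119 ± 1.43 at day 0 (log2 change -0.28, SE 0.019, adjusted p = 3.78e-08). Hnrnpa2b1 averaged 856 ± 1.56 FPKM at day 2 and 838 ± 17.1 at day 0 and did not pass (log2 change 0.03, SE 0.022, adjusted p = 0.224), though it was called higher with median-of-ratios scaling (log2 change 0.13) and quantile normalization (0.091).

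The WT rises were led by Hnrnpl, at 363, 368 and 367 FPKM at day 2, against 272, 259.8 and 263 at day 0 (log2 change 0.46, SE 0.024, adjusted p = 2.46e-09). Hnrnpul2 rose to a mean of 69.7 ± 0.293 FPKM at day 2, against 53.7 ± 1.18 at day 0 (log2 change 0.37, SE 0.025, adjusted p = 4.25e-08). Srsf11 rose to 163 ± 0.73, against 128 ± 1.87 (log2 change 0.34, SE 0.023, adjusted p = 3.09e-08), and Srsf5 to 262 ± 5.46, against 208 ± 6.1 (log2 change 0.33, SE 0.029, adjusted p = 4.04e-07). The days were separate in these genes too. The falls of Hnrnpab, Srsf10 and Hnrnph3 in WT were near the threshold: whichever of the 12 libraries was left out, at least 1 of the 3 lost its call (Hnrnpab and Srsf10 without WT day 0 replicate 3), and all 3 were lost with median-of-ratios or TPM scaling. Hnrnpll and Hnrnpa3 did not pass in WT.

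**Figure D4:**
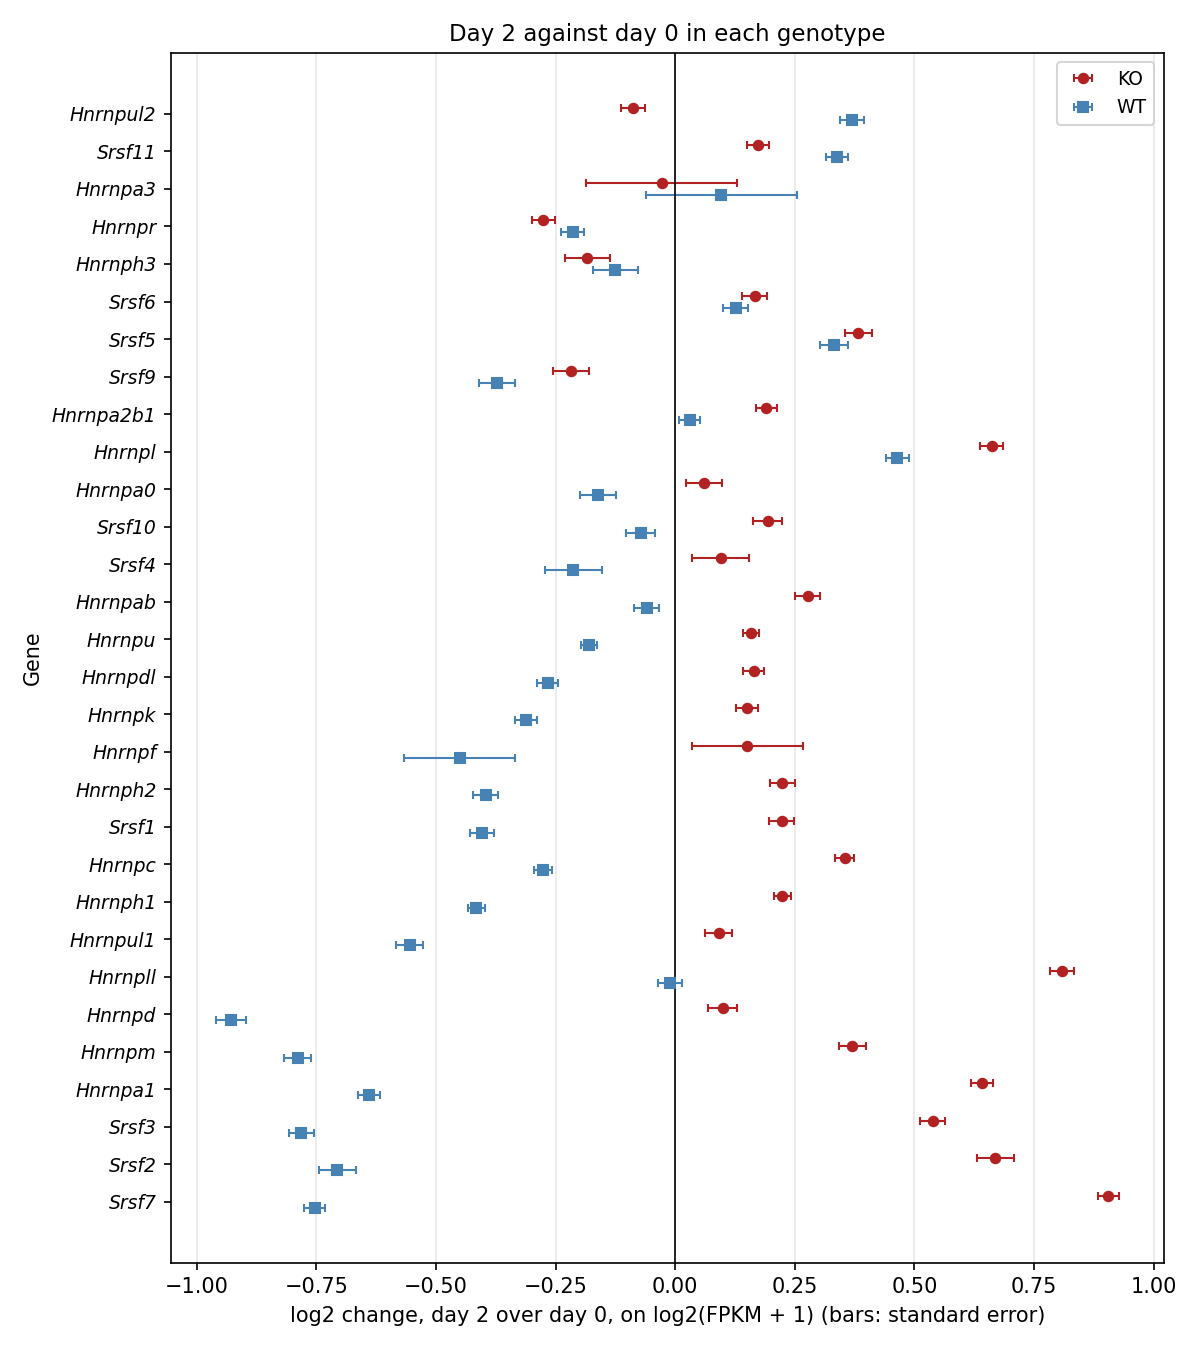
Log2 change at day 2 over day 0 for each tested member in KO and in WT cells, with bars of 1 standard error. For 16 members the KO point lies right of 0 and the WT point left of 0, both past the threshold.

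The KO and WT responses share no library, and their difference was tested as the genotype by day interaction, the KO response minus the WT response. It was positive for 23 members and negative for 2, beside 40.8% and 33% of all genes, with a median of 0.39 over the members and 0.06 over all genes. With the 1.5-fold minimum the counts were 13 and 0, beside 23.3% and 17.6%. No negative interaction was larger than that of Hnrnpul2. The largest positive values were those of Srsf7 (interaction on the log2 scale 1.66, SE 0.032, adjusted p = 1.07e-12), Srsf2 (1.38, SE 0.055, adjusted p = 4.89e-10), Srsf3 (1.32, SE 0.036, adjusted p = 1.97e-11) and Hnrnpa1 (1.28, SE 0.032, adjusted p = 9.41e-12). Hnrnpul2 (-0.46, SE 0.036, adjusted p = 2.37e-07) and Srsf11 (-0.17, SE 0.032, adjusted p = 0.00052) were the 2 negative ones. Hnrnpc had 0.63 (SE 0.026, adjusted p = 8.09e-10) and Hnrnpa2b1 0.16 (SE 0.031, adjusted p = 0.000651), and the call for Hnrnpa2b1 was lost with quantile normalization, at 0.014. Hnrnpa3, Hnrnph3, Hnrnpr, Srsf5 and Srsf6 did not pass.

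By direction, 16 members rose in KO and fell in WT: Hnrnpa1, Hnrnpab, Hnrnpc, Hnrnpd, Hnrnpdl, Hnrnph1, Hnrnph2, Hnrnpk, Hnrnpm, Hnrnpu, Hnrnpul1, Srsf1, Srsf2, Srsf3, Srsf7 and Srsf10. Of all genes tested 11.2% did so. Those with a less firm call in 1 genotype were Hnrnpd and Hnrnpul1 in KO, which lost it with TPM scaling, and Hnrnpab and Srsf10 in WT. Hnrnpl, Srsf5, Srsf6 and Srsf11 rose in both genotypes, and Hnrnph3, Hnrnpr and Srsf9 fell in both, beside 18% and 26.2% of all genes. Hnrnpul2 alone among the members fell in KO and rose in WT, as did 7.01% of all genes. The size of the KO to WT difference was smaller at day 2 than at day 0 in 26 of the 30 members, of which 24 had a called interaction. Of all genes 51% had a smaller difference at day 2, and 37.5% had it with a called interaction. Genes already lower in KO at day 0 had it more often, 60.4% over all genes and 24 of 25 among the members. The 4 with a larger difference at day 2 were Hnrnpa3, Hnrnpr, Hnrnpul2 and Srsf5, and of these the interaction was called for Hnrnpul2.

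Paralogues within the families did not keep fixed proportions. Hnrnpdl and Hnrnpd encode close relatives that bind AU-rich RNA. The ratio of Hnrnpdl to Hnrnpd FPKM was 1.99 ± 0.11 in KO and 0.78 ± 0.013 in WT at day 0, and 2.08 ± 0.02 in KO and 1.24 ± 0.033 in WT at day 2 (SD, n = 3 each). The ratio of Hnrnpa2b1 to Hnrnpa1, the 2 main A-type hnRNPs, was 4.69 ± 0.11 in KO and 1.88 ± 0.027 in WT at day 0, and 3.42 ± 0.067 in KO and 3.00 ± 0.041 in WT at day 2. For the SR paralogues Srsf5 and Srsf6 the ratio was 3.67 ± 0.054 in KO and 1.87 ± 0.078 in WT at day 0, and 4.26 ± 0.15 in KO and 2.16 ± 0.11 in WT at day 2. The KO and WT ranges of each of these ratios were apart at both days. Srsf3 to Srsf7 stayed closer, at 2.67 ± 0.023 in KO and 1.99 ± 0.017 in WT at day 0, and 2.05 ± 0.065 in KO and 1.96 ± 0.049 in WT at day 2, with overlapping libraries at day 2. Hnrnpll to Hnrnpl was 0.164 ± 0.0038 in KO and 0.185 ± 0.0063 in WT at day 0, and 0.184 ± 0.0099 in KO and 0.133 ± 0.001 in WT at day 2. The pairs were picked after the levels were seen, and the ratios were not tested. Hnrnpa1 and Hnrnpa3 have many processed pseudogenes, so their values may depend on how reads of near-identical copies were counted.

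Promoter sequence was read for the members because so many moved together between the genotypes. RefSeq (GRCm38.p6) gave a window for 29 of the 31 genes, and the 250 bases before each start were searched on both strands for 6 short motifs. CCAAT, the box bound by NF-Y, was found in 16 of 29 members (55.2%) and in 38.4% of 20177 genes with a window. It was in 15 of the 24 members with a window that were lower in KO at day 0 and in 0 of the 3 that were higher. The ETS word CCGGAAG was in 20.7% of members and 9.51% of all genes. It was in 4 of the 24 lower members, among them Srsf7, Hnrnpd and Hnrnpf, and in 2 of the 3 higher. All genes were not split by direction in this way, and a link between word and direction was not tested. The NRF1 word GCATGCGC was in 10.3% and 3.13%, and the E-box CACGTG in 10.3% and 7.36%. The E2F words TTTGGCGC, TTTCCCGC, TTTGCCGC and TTTCGCGC were in 13.8% of members (Hnrnpr, Hnrnpul1, Srsf1 and Srsf10) and 2.47% of all genes. TATAAA was in 10.3% and 13.5%. Words were searched separately, so matches of different words may overlap, and a match describes letters, not a bound site. A gene with several windows was counted if any of them matched. The 20177 genes include genes too low to be tested, unlike the 12961 used elsewhere, and not all chromosomes were searched. A higher share in the members than in this background is therefore not shown to be particular to them.

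The promoters of 4 members show the range, from Srsf3, Hnrnpab and Hnrnpm, which fell in KO at day 0, to Srsf5, which rose. Each is the stretch just before the start of the gene, at most 150 bases, 5′ to 3′ on the strand of the gene in GRCm38.p6, with matches to the words above in capitals: Srsf3 at chr17:29032510-29032659 (plus strand), Hnrnpab at chr11:51606882-51607031 (minus), Hnrnpm at chr17:33685459-33685608 (minus) and Srsf5 at chr12:80945349-80945494 (plus).
Srsf3: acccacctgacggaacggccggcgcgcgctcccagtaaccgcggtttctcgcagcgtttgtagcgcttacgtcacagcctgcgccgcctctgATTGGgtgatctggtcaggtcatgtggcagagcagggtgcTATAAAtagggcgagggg
Hnrnpab: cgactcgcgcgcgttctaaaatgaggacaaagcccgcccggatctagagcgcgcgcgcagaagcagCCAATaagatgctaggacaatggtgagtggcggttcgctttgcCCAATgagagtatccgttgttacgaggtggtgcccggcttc
Hnrnpm: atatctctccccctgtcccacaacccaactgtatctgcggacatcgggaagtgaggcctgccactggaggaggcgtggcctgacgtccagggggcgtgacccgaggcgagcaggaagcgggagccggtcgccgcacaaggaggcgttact
Srsf5: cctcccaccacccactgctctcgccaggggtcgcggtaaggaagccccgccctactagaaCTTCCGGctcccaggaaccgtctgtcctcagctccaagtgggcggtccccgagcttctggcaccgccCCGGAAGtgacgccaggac
Srsf3 holds a CCAAT box on the other strand (ATTGG) and a TATA word, Hnrnpab holds 2 CCAAT boxes, and Srsf5 holds an ETS word on each strand. Hnrnpm, lower in KO by 2.83-fold at day 0, holds none of the words in the stretch shown. It does hold TATAAA in the 250 bases searched, not within that stretch.

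Other genes of the pathway were taken from lists chosen by role, with earlier results of these data known. The core spliceosome list, subunits of the snRNPs and of the catalytic complexes, followed the direction of the members at day 0: 36 of 36 tested genes were lower in KO (34 with TPM scaling or quantile normalization), with a median log2 change of -0.87. Snrpb, an Sm protein shared by the spliceosomal snRNPs, averaged 108 ± 0.265 FPKM in KO and 277 ± 6.13 in WT (log2 change -1.36, SE 0.022, adjusted p = 9.99e-14). U2af2, the large U2AF subunit that binds the polypyrimidine tract, averaged 126 ± 3.5 FPKM in KO and 288 ± 2.26 in WT (log2 change -1.18, SE 0.022, adjusted p = 4.15e-13). At day 2, 30 were lower and 5 higher (median -0.37). Over the cocktail 22 of the 36 rose and 7 fell in KO (median 0.15; 25 and 4 with median-of-ratios scaling), and 3 rose and 29 fell in WT (median -0.42). Sf3a3, a subunit of the U2 snRNP, averaged 32.3 ± 0.511 FPKM in WT at day 2 and 66.9 ± 0.419 at day 0 (log2 change -1.03, SE 0.023, adjusted p = 1.02e-12). The interaction was positive in 32, negative in 1 and not called in 3.

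Proteins counted as hnRNPs under other symbols moved in the same direction at day 0, with 11 of 16 lower and 3 higher in KO (median -0.67). Ptbp1, the polypyrimidine tract binding protein hnRNP I, averaged 94.1 ± 1.24 FPKM in KO and 255 ± 7.53 in WT at day 0 (log2 change -1.43, SE 0.028, adjusted p = 4.72e-13). Tardbp, which encodes TDP-43, averaged 110.1 ± 1.22 FPKM in KO and 187 ± 1.91 in WT (log2 change -0.76, SE 0.018, adjusted p = 3.03e-12). At day 2, 10 were lower and 5 were higher (median -0.20). The RNA helicase Ddx17 was among the higher ones, at 168 ± 2.01 FPKM in KO and 88.8 ± 2 in WT (log2 change 0.91, SE 0.021, adjusted p = 1.54e-12). In the cocktail response 8 rose and 4 fell in KO, and 4 rose and 12 fell in WT. Syncrip, hnRNP Q, rose in KO to 72.2 ± 0.964 FPKM at day 2, against 44.3 ± 0.815 at day 0 (log2 change 0.69, SE 0.028, adjusted p = 5.2e-10). Pcbp4, a poly(C) binding protein, fell in WT to 88.3 ± 2.01 FPKM at day 2, against 235 ± 3.85 at day 0 (log2 change -1.40, SE 0.03, adjusted p = 6.49e-13).

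SR-related proteins outside the Srsf names were less uniform: 11 of 19 were lower and 4 higher in KO at day 0 (median -0.31), and 8 were lower and 7 higher at day 2 (median 0.023). With TPM scaling or quantile normalization the day 0 split was 10 lower and 8 higher, and with quantile normalization the day 2 split was 6 lower and 11 higher. In KO 16 of the 19 rose with the cocktail and 1 fell, while in WT 8 rose and 8 fell, or 9 rose and 4 fell with median-of-ratios scaling. Tra2b, a splicing activator with arginine-serine domains, averaged 49.6 ± 1.66 FPKM in KO and 116 ± 1.62 in WT at day 0 (log2 change -1.21, SE 0.026, adjusted p = 1.1e-12). In KO it rose to 70.5 ± 1.08 FPKM at day 2 (log2 change 0.50, SE 0.026, adjusted p = 5.01e-09). The list of kinases that phosphorylate SR proteins and of the importer that carries them into the nucleus also holds the phosphatase gene Ppp1ca. This list was split, with 5 of 10 higher and 4 lower in KO at day 0, and 5 higher and 5 lower at day 2. These shares were near those of all genes, and Ppp1ca was among the lower genes at both days. Tnpo3, the transportin of SR proteins, was lower at both days, at 25.8 ± 1.21 FPKM in KO and 55.4 ± 0.544 in WT at day 0 (log2 change -1.08, SE 0.032, adjusted p = 2.23e-11), and at 25.3 ± 0.589 in KO and 55.6 ± 0.734 in WT at day 2 (log2 change -1.10, SE 0.032, adjusted p = 1.49e-11). Clk1, a kinase of SR proteins, rose in WT to 57.0 ± 2.83 FPKM at day 2, against 30.9 ± 2.03 at day 0 (log2 change 0.86, SE 0.048, adjusted p = 6.09e-09).

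Other regulators of alternative splicing were lower in KO at day 0 in 14 of 22 and higher in 6 (median -0.43), or 13 and 8 with quantile normalization (median -0.26), beside 44.2% lower and 38.3% higher among all genes. Khdrbs1, which encodes Sam68, averaged 47.6 ± 0.692 FPKM in KO and 110.3 ± 1.36 in WT (log2 change -1.20, SE 0.022, adjusted p = 2.76e-13). Rbm5, a regulator of apoptotic splicing, stood on the other side, at 132 ± 2.89 FPKM in KO and 67.0 ± 1.47 in WT (log2 change 0.97, SE 0.03, adjusted p = 2.71e-11). Rbfox2, which binds UGCAUG elements, was higher in KO too, at 66.0 ± 1.46 FPKM in KO and 40.4 ± 0.795 in WT (log2 change 0.69, SE 0.023, adjusted p = 5.48e-11). Celf2 rose with the cocktail in both genotypes, in KO to 103 ± 7.16 FPKM at day 2, against 35.0 ± 0.493 at day 0 (log2 change 1.53, SE 0.047, adjusted p = 4.31e-11), and in WT to 86.3 ± 2.02, against 19.3 ± 0.902 (log2 change 2.11, SE 0.047, adjusted p = 1.01e-12). Of 10 genes of nonsense-mediated decay, 5 were lower and 3 higher in KO at day 0, and 5 lower and 4 higher at day 2, with medians of -0.12 and -0.048, shares near those of all genes. With TPM scaling the medians were -0.016 and -0.006, and with quantile normalization -0.007 and 0.003. Upf1, the helicase of that pathway, averaged 54.1 ± 0.604 FPKM in KO and 30.5 ± 0.379 in WT at day 2 (log2 change 0.81, SE 0.026, adjusted p = 3.93e-11).

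Proliferation genes moved with the members, but their list was chosen as genes whose level moves beside the members. The shared direction is therefore no independent support. All 14 were lower in KO at day 0 (median log2 change -3.73), 13 were lower and 1 higher at day 2 (median -1.45), 13 of 14 rose in KO and 13 of 14 fell in WT with the cocktail, and all 14 had a positive interaction. Their summed level was 159 to 162 FPKM in KO and 1591 to 1604 in WT at day 0, and 661 to 678 in KO and 902 to 909 in WT at day 2. The proliferation marker Mki67 averaged 1.81 ± 0.133 FPKM in KO and 53.7 ± 3.14 in WT at day 0, and 5.49 ± 0.373 in KO and 24.3 ± 0.279 in WT at day 2. The order of the 4 groups by the summed proliferation level, lowest in KO at day 0 and highest in WT at day 0, was also that of the Hnrnp sum. The sums of the core spliceosome list and of hnRNP proteins under other symbols had this order too. The Srsf sum did not have it, and at day 2 averaged 1176 FPKM in KO and 1136 in WT. The part of proliferation in the changes of the members was not tested. Fat cell markers went a different way, with 1 of 7 lower and 1 higher in KO at day 0 and 7 of 7 lower at day 2. Their sum was 193 to 204 FPKM in KO and 65.8 to 70.8 in WT at day 0, and 364 to 377 in KO and 8206 to 8392 in WT at day 2. Lpl alone made most of the sum at day 0 (190 FPKM in KO and 55.9 in WT) and in KO at day 2 (273). Pparg went the other way at day 0, at 2.85 FPKM in KO and 10.2 in WT. Fabp4, the fatty acid binding protein of fat cells, averaged 10.3 ± 0.367 FPKM in KO and 2975 ± 79.2 in WT at day 2. The fibroblast list summed to 26240 to 26920 FPKM in KO and 8272 to 8508 in WT at day 0, and 6361 to 6633 in KO and 1053 to 1074 in WT at day 2, and the part of either list in the changes of the members was not tested.

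**Figure D5:**
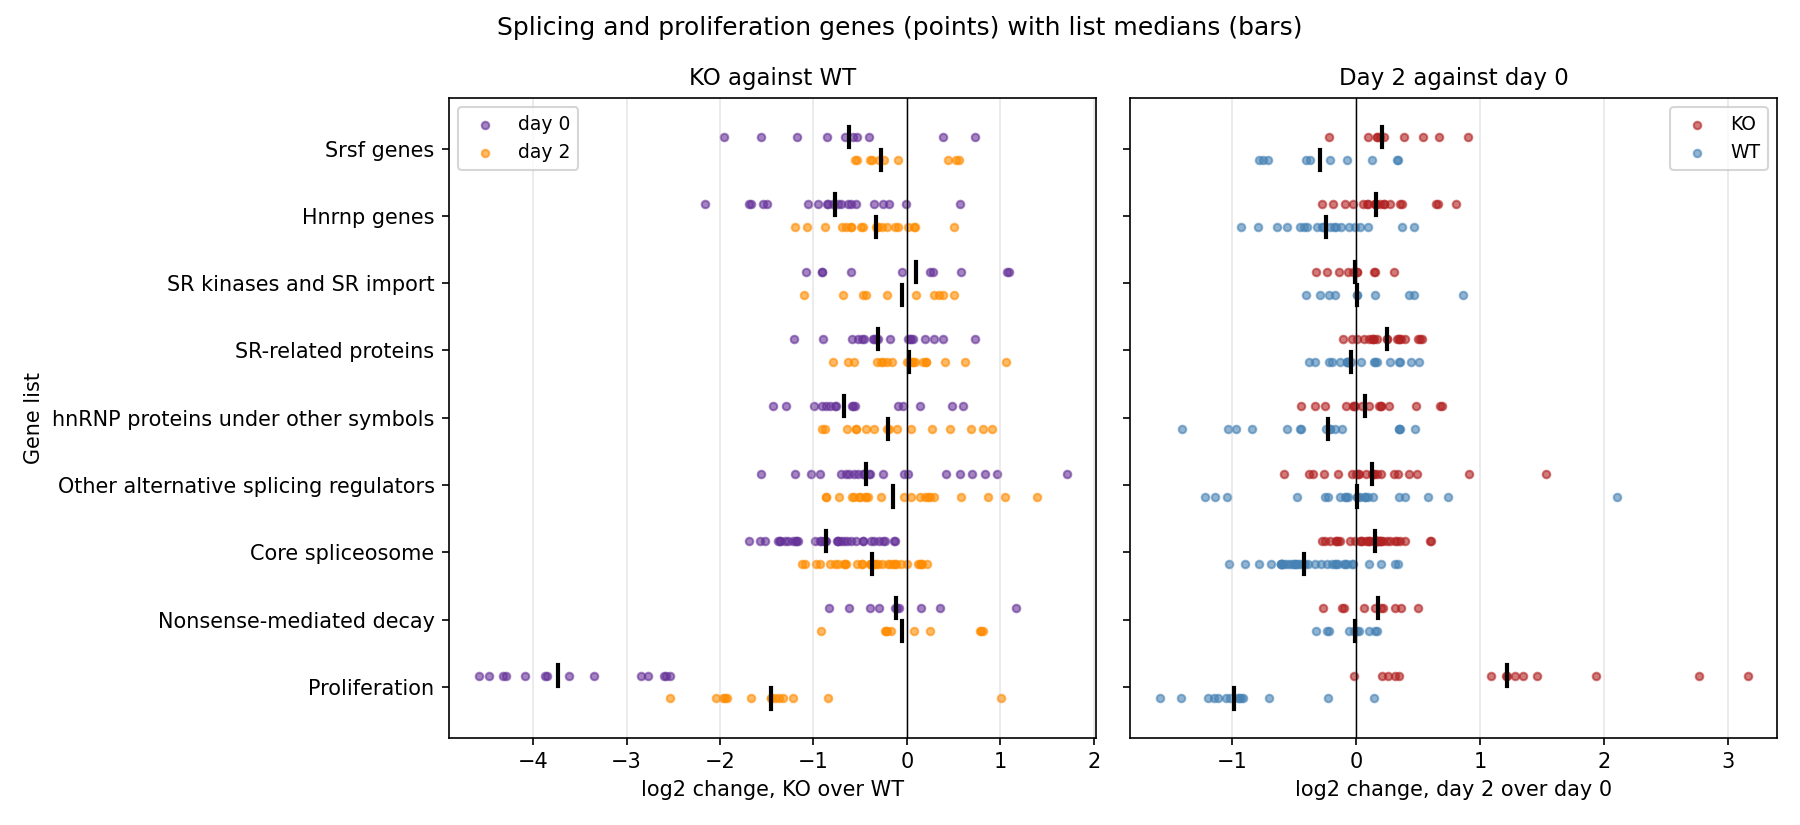
Log2 changes of the tested genes (points) of each list with the list median (bar), for KO over WT at each day on the left and for day 2 over day 0 in each genotype on the right. The median of the proliferation list lies farthest from 0 of the 9 lists plotted in all 4 comparisons, and all 36 core spliceosome genes lie left of 0 for KO over WT at day 0.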

How the data were processed

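RNA-seq was deposited for 12 libraries of 3T3-L1 cells, 3 for each genotype label and day. The authors deposited FPKM values for 52505 genes. Per the submitters' processing notes, Bowtie2 2.2.3, BWA 0.7.12, CASAVA, FastQC, HTSeq 0.6.1, MACS2 2.1.0 and TopHat2 2.0.12 were used with build mm10. The sources used here give neither their roles nor the annotation, strand setting and FPKM formula. FPKM takes its scale from the total of each library, so a change in a few abundant genes moves all others. The steps of the values gave whole reads in 100% of 30916 genes above 0 (tolerance 0.001 of a read), 18073258 to 23114994 per library. Genes above 0 in a single library give whole reads by construction, so this share overstates the check. Replicate libraries of a group differed by a median of 1.38 to 2.15 times counting noise, and the median coefficient of variation of the members was 2% over 120 gene and group values. No 2 libraries were counted as the same.

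Symbols were matched for 51633 identifiers. Values were analysed as log2(FPKM + 1) where the mean over the 12 libraries reached 1 FPKM (12961 genes), so changes of low genes are understated. A mean per group was fitted over all 12 libraries with limma 3.58.1 in R 4.3.3 (variance trend, 8 residual degrees of freedom). Tests were 2-sided with Benjamini-Hochberg adjustment within each comparison and a threshold of 0.05, and a second count also required a change of 1.5-fold. The fit was also run on simulated counts, with the same extra spread for all genes and changes in few genes of a single group. These settings differ from the data, so no support is drawn from that run. No replicate block was used: same-numbered libraries had deviations that correlated at -0.055 to 0.087 across genes, and the labels tie no number to a culture. Positions, promoters and symbols came from RefSeq tables of GRCm38.p6.

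Alternatives were a pseudocount of 0.1, no filter or a mean of at least 5 FPKM, a replicate block, voom on the recovered reads, a fit with no variance trend, a fit to the compared libraries alone, scaling by TPM, by median-of-ratios or by quantiles, and each library left out. The members and lists were chosen with earlier results of these data known, so no list is independent evidence. Values in each library are given for Hnrnpa2b1, Hnrnpc and Srsf3 and, in each comparison, for up to 4 rises and 4 falls that were largest among called members with no overlap (for the interaction, the largest called values, whatever the overlap), and some of these are given as means where their libraries appear elsewhere. Genes of other lists are those with the smallest adjusted p in a comparison, and Mki67 and Fabp4 were added as familiar markers. The remaining members are given by range, by mean or by name.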

Additional observations from a re-analysis of the deposited data

Results flagged for a closer look

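The responses of the members to the cocktail differed between the genotypes, by the interaction test over all 12961 genes (limma, Benjamini-Hochberg). The KO response exceeded the WT response for 23 of 30 members and fell below it for 2, beside 40.8% and 33% of all genes. Srsf7 had an interaction of 1.66 on the log2 scale, Srsf2 of 1.38, Srsf3 of 1.32, Hnrnpa1 of 1.28, Hnrnpc of 0.63 and Hnrnpa2b1 of 0.16. Hnrnpul2, at -0.46, and Srsf11, at -0.167, had the opposite sign. For Srsf7, Srsf2, Srsf3, Hnrnpa1 and Hnrnpc all 3 KO day 2 libraries lay above all 3 KO day 0 libraries and all 3 WT day 2 libraries below all 3 WT day 0 libraries, and for Hnrnpul2 the order was the opposite in each genotype. Srsf11 rose in both genotypes, more in WT than in KO.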

How the results depend on the processing

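Of 1070 recalculated values of named members under 22 alternatives, 1066 kept their direction and their side of the threshold, and no called member changed sign while staying called. Of the alternatives, 12 only left out a library. Apart from the 3 m6A-linked genes, named members were picked for large changes, so their agreement says little of the others. Calls were lost in at least 1 alternative by Hnrnpa0, Hnrnpa2b1, Hnrnpab, Hnrnpd, Hnrnph2, Hnrnph3, Hnrnpll, Hnrnpu, Hnrnpul1, Hnrnpul2, Srsf4, Srsf6, Srsf9 and Srsf10. With quantile normalization 4 members had a negative interaction in place of 2, and with TPM or median-of-ratios scaling 3. Hnrnpr gained a called interaction with each of these scalings. The lower count in KO at day 0 was 25 in each alternative, and the higher count 3 to 4. At day 2 the counts were 19 to 22 lower and 5 to 7 higher. In the cocktail response 20 to 24 members rose and 3 to 4 fell in KO, and 5 to 7 rose and 17 to 22 fell in WT. With the replicate block 25 members were lower and 3 higher in KO at day 0, 22 lower and 6 higher at day 2, and 23 had a positive interaction. The labels do not say whether the numbers pair the libraries. Of the 12 libraries 6 correlated best with their own number, and whether this exceeds chance was not tested. The block also called Hnrnpa3 lower in KO at day 2 (log2 change -0.32, adjusted p = 0.0392), as did voom (-0.32, adjusted p = 0.0487). Quantile normalization moved the median of all genes in the WT response by 0.12, and the median of the members relative to it was -0.29, against -0.13 in the reported fit. In the same terms it reduced the median of the members to -0.15 (reported -0.32) for KO against WT at day 2 and to 0.11 (reported 0.21) for the KO response. It also ended the day 2 calls of Hnrnpll, Hnrnpu and Hnrnpul1 between KO and WT. The cause of these changes was not tested. With 3 libraries in a group and no stated cultures, small differences such as those of Hnrnpdl and Hnrnph2 are set against a spread that may be technical.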

Other observations

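Replicate spread within a group was over 10% of the mean in 4 of the 120 combinations of a tested member and a group. They were Hnrnpa3 in WT at day 0 (75.7, 55.7 and 63.5 FPKM) and at day 2 (70.2, 52.4 and 89.2 FPKM), and Hnrnpf in KO at day 0 (103, 145 and 148 FPKM) and in WT at day 0 (470.5, 392 and 392 FPKM). The ratio of Hnrnph3 to Hnrnph1 was 0.0753 ± 0.0041 in KO and 0.0322 ± 0.0013 in WT at day 0, and 0.0564 ± 0.0024 in KO and 0.0392 ± 0.0018 in WT at day 2 (SD, n = 3 each). That of Hnrnpul2 to Hnrnpul1 was 0.863 ± 0.019 in KO and 0.519 ± 0.023 in WT at day 0, and 0.76 ± 0.038 in KO and 0.993 ± 0.0087 in WT at day 2, so its order between the genotypes differed by day. These genes were picked after their values were seen.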
